A study of Mus musculus with 10 samples.

Results

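The genes described here are the nuclear genes of oxidative phosphorylation, grouped by the enzyme complex, I to V, that their products belong to. They were chosen by gene symbol alone: 85 of 32531 gene rows matched the symbols of complex I (Nduf), complex II (Sdh), complex III (Uqcr and Cyc1), complex IV (Cox4 to Cox8) or complex V (Atp5). Of these, 83 had at least 10 reads in 4 or more libraries and were kept: 35 of complex I, 4 of complex II, 9 of complex III, 18 of complex IV and 17 of complex V. Ndufa4 and its paralog Ndufa4l2 carry the symbol of complex I but are counted with complex IV, where the Ndufa4 protein is now placed. The 2 rows not kept were both isoforms of a complex IV subunit, Cox8b (0 to 11 reads, with 1 library at 10 or more) and Cox8c (0 reads in all 10 libraries). The kept genes nearest to the threshold were Atp5l and Cox4i2, each with 10 or more reads in 6 libraries. Symbols select by name and not by function: Atp5s encodes a coupling factor that is no subunit, and Atp5sl, now called Dmac2, an assembly factor of complex I. Both stay in the counts, medians and totals of complex V, by symbol only.

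The RNA came from the medial habenula of adult Chat-TRAP DW167 mice, in which a bacterial artificial chromosome transgene puts an EGFP-tagged ribosomal protein Rpl10a into cells that use the choline acetyltransferase (Chat) gene. The 2 sides were dissected and homogenised apart, tagged polysomes were captured with an antibody to EGFP, and the RNA bound to them was sequenced (translating ribosome affinity purification). There were 5 libraries of the left and 5 of the right side; all carry the same transgene, none had a treatment named in the labels, and all were pull-downs, so enrichment over the whole tissue was not measured here. Read counts assigned to genes were between 42488448 and 67942836 per library, and levels are given as CPM, counts per 1e+06 gene reads. Separate animals are not named for the libraries in the labels, so each p-value below measures the spread between these libraries, which may be technical.

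Oxidative phosphorylation takes place in the inner mitochondrial membrane. Complexes I and II pass electrons from NADH and succinate to ubiquinone, complex III hands them to cytochrome c, complex IV to oxygen, and the proton gradient that complexes I, III and IV build is used by complex V, the ATP synthase. Most subunits are encoded in the nucleus and imported; a small set, among them the catalytic core of complex IV, is encoded by the mitochondrial genome and was not analysed here. Neurons draw most of their ATP from this pathway, and the transcription factors NRF1, GABP and YY1, with the coactivator PGC-1α, are textbook regulators of its nuclear genes.

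The 250 bases before the transcription start were searched for motifs of these factors in RefSeq promoters on GRCm38.p6, in which 68 of the 83 genes were found. Both strands were searched, at every start listed for a gene, so genes with more starts had more chance of a match. The NRF1 motif (GCGCA, then any base, then GCGC) was present for 13 of the 68 genes (19.1%), against 4.23% of all 27025 genes of the promoter table and 8.52% of the 11890 tested genes found in it. The ETS motif of GABP, CCGGAAGT, was present for 3 genes (4.41%), against 3.23% of all genes and 5.97% of tested genes. AAGATGGCG, a core of the YY1 site, was present for 2 genes (2.94%), against 0.7105% of all genes and 1.24% of tested genes. By complex, the NRF1 motif was found for 6 of 31 genes of complex I, 2 of 3 of complex II, 0 of 5 of complex III, 1 of 13 of complex IV and 4 of 16 of complex V. The 3 genes with the ETS motif were Uqcrh and Uqcr11 of complex III and Atp5h of complex V. A match describes the letters only. It is neither a measured binding site nor a cause of any level given below, and the absence of these letters from the window does not show that a factor fails to bind.

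One stretch of 100 bases is shown for each of the 4 complexes with an NRF1 match, each upstream of the annotated gene, written 5′ to 3′ on the strand of the gene, with the letters of the NRF1 motif in capitals. The windows lie at chr17:56717657-56717756 (plus strand) for Ndufa11, an accessory subunit of complex I, at chr13:74350281-74350380 (minus strand) for Sdha, the succinate-oxidising flavoprotein of complex II, at chr5:115349021-115349120 (minus strand) for Cox6a1, a subunit of complex IV, and at chr11:115420006-115420105 (minus strand) for Atp5h, subunit d of the stalk of ATP synthase.
Ndufa11: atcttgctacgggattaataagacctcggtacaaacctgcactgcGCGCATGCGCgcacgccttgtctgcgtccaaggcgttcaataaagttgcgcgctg
Sdha: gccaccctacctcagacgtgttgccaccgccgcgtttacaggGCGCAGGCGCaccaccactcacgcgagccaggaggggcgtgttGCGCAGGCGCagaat
Cox6a1: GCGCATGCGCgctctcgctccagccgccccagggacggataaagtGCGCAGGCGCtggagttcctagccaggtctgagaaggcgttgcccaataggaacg
Atp5h: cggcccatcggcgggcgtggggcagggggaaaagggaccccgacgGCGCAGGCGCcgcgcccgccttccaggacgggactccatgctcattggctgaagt
The windows of Sdha and Cox6a1 each hold the motif 2 times, those of Ndufa11 and Atp5h 1 time. Their mean levels were 163 ± 92.3 CPM per kilobase of transcript for Ndufa11, 177 ± 18.8 for Sdha, 776 ± 216 for Cox6a1 and 114 ± 47.8 for Atp5h (SD, n = 10 libraries).

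The libraries of 1 side were not alike, and this bears on every value below. Replicates 1 and 5 of both sides held the least RNA of other cell types. The 15 astrocyte markers summed to 65.7 to 76.0 CPM in these 4 libraries and to 349 to 1630 CPM in the other 6, with all 15 markers lower in the 4. The 12 oligodendrocyte markers summed to 105 to 118 against 420 to 1736 CPM (11 of 12 lower in all 4), the 6 thalamic neuron markers to 181 to 214 against 642 to 1636 CPM (6 of 6), and the 6 GABAergic markers to 28.5 to 47.3 against 155 to 595 CPM (5 of 6). The 10 microglial markers summed to 2.26 to 3.13 against 10.1 to 30.7 CPM (6 of the 8 tested), 8 pericyte and mural markers to 2.68 to 3.66 against 11.4 to 37.5 CPM (6 of 8), and 8 endothelial markers to 12.6 to 14.3 against 15.8 to 29.7 CPM (6 of 8). No marker was at 0 in every library. The 11 markers of medial habenular neurons, the labelled target, ran the other way, at 10556 to 11029.5 CPM against 5193 to 9059.7 CPM. Of these, 9 of 11 were higher in all 4, with Chat itself at 162 to 196 CPM against 84.5 to 123 CPM. Replicates 1 and 5 of a side also resembled each other more than any other pair of that side. Chi-square per degree of freedom between their counts, over genes with 20 to 100 reads, was 1.45 for the left pair and 1.13 for the right pair, against 4.03 to 21.0 for the other 18 same-side pairs. They differed by more than sampling noise and were kept as separate libraries, but they may come from the same RNA; the totals by side, the test between the sides and the counts of genes highest in these replicates are also given with each pair summed to 1 library.

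Transcripts of the 83 genes together took 2.01, 1.39, 1.17, 1.04 and 2.01% of gene reads in left replicates 1 to 5 and 2.03, 1.37, 1.14, 1.23 and 2.01% in right replicates 1 to 5. The sides overlapped almost completely, at 1.52 ± 0.46% for left and 1.56 ± 0.43% for right libraries (SD, n = 5), or 1.40 ± 0.43% and 1.44 ± 0.40% with replicates 1 and 5 summed (n = 4). The range over libraries was 1.959-fold, from left replicate 4 to right replicate 1, and replicates 1 and 5 of both sides stood above the other 6 libraries. Complex V, the ATP synthase, held the largest share of these reads, 39.3% to 51.7% in a library, followed by complex I with 20.2% to 24.4% and complex IV with 13.2% to 21.2%. Complex III held 8.01% to 10.03% and complex II 5.19% to 7.88%. The sums of the complexes were not equally steady: summed CPM ranged 3.10-fold over the libraries for complex IV, 2.42-fold for complex III, 2.34-fold for complex I, 1.58-fold for complex V and 1.57-fold for complex II. A sum follows its most abundant genes. In left libraries Atp5b alone averaged 3248 of the 6621 CPM of complex V, and its range was 1.40-fold. Gene by gene, the median range was 3.75-fold for complex IV, 2.91-fold for V, 2.88-fold for I, 2.51-fold for III and 2.31-fold for II. In RNA of pull-downs, differences in cell number, in RNA per cell and in RNA of other cell types cannot be told apart.

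**Figure D1:**
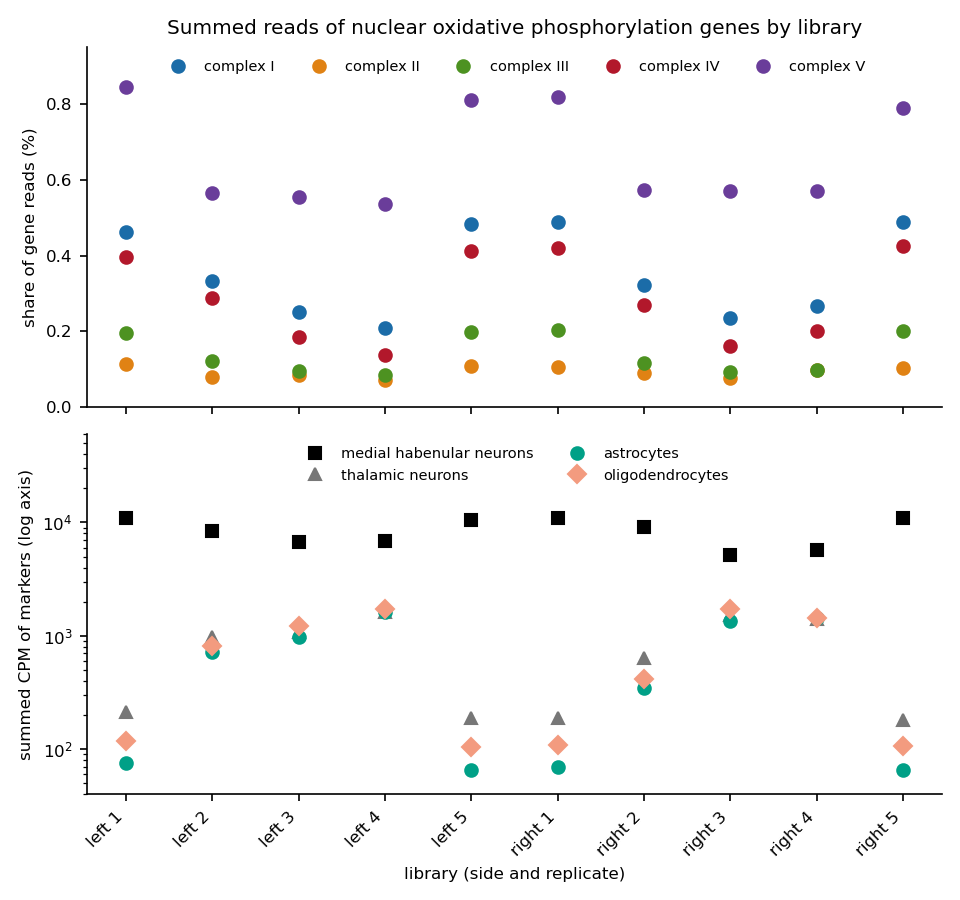
Upper panel: share of gene reads (%) of the kept genes of each complex in each of the 10 libraries. Lower panel: summed CPM (log axis) of 4 marker lists in the same libraries. Replicates 1 and 5 of both sides are highest for all 5 complexes and lowest for the astrocyte, oligodendrocyte and thalamic markers.

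Levels of different genes can be compared only per length. Per kilobase of transcript, complex V had the highest median over its genes, 259 CPM, followed by complex IV with 164, complex III with 114, complex II with 102 and complex I with 98.4. With the longest principal transcript of each gene complexes III and IV stood closer, at 114 and 122, and with the shortest complex III stood at 124. The order also depends on which genes are counted. Of the 18 genes of complex IV, 6 isoforms of restricted tissues had a median of 1.13 and 11 accessory genes one of 401. In complex V, the 2 genes counted by symbol only had a median of 17.4. A median over all genes of a complex therefore does not rank the main subunits of complexes IV and V.

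**Figure D2:**
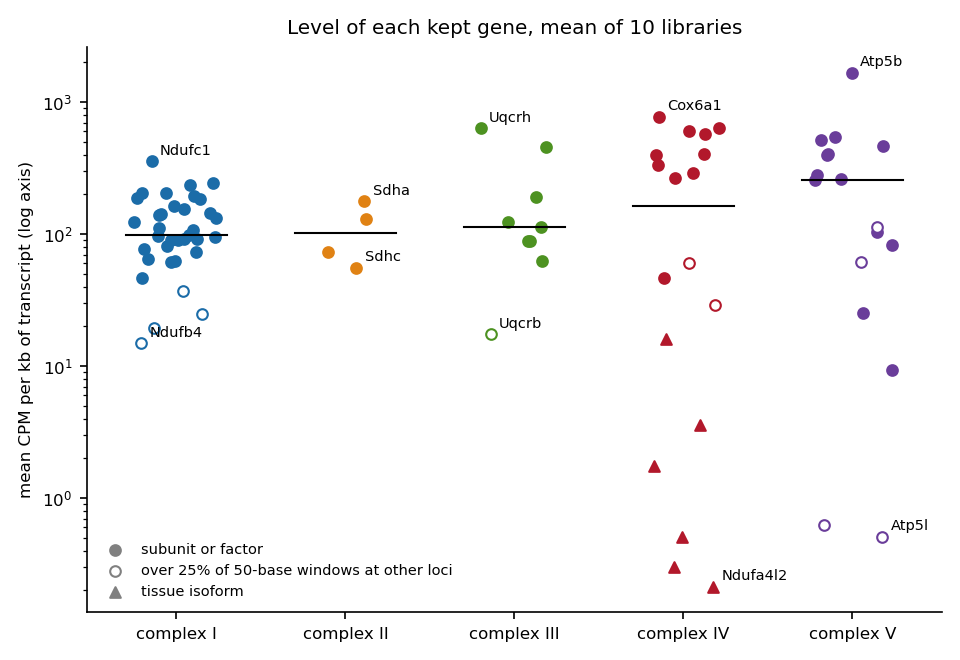
Mean level of each kept gene in CPM per kilobase of transcript (log axis) over 10 libraries, by complex and colour, with selected genes named; bars are medians, triangles isoforms of restricted tissue, and open circles genes with over 25% of their 50-base windows at other loci. Atp5b is highest, and the isoforms Cox4i2, Cox7b2 and Ndufa4l2 with Atp5l and Atp5g2 lie below 1.

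Complex I takes electrons from NADH. Its 7 nuclear core subunits include those that carry the flavin and the iron-sulfur clusters, and 28 accessory genes were kept beside them. Gene positions are those of GENCODE M21 on GRCm38 (mm10). Ndufs7 (chr10:80249121-80256794, plus strand), the iron-sulfur subunit next to the ubiquinone site, was the most abundant core transcript at 244 ± 69.8 CPM per kilobase, beside 124 ± 22.4 for Ndufs8. For Ndufs7, left replicates 1 to 5 gave 204, 189, 143, 123 and 241 CPM and right replicates 1 to 5 gave 249, 196, 125, 125 and 253 CPM. These values overlap between the sides, with replicates 1 and 5 highest, and gave a log2 fold change of -0.09 (95% interval -0.66 to 0.48). Ndufv1, which binds the flavin that receives electrons from NADH, stood at 61.8 ± 19.8 CPM per kilobase and Ndufs1, the largest iron-sulfur subunit, at 46.8 ± 6.61. For Ndufs1, left replicates 1 to 5 gave 151, 91.8, 125, 127 and 129 CPM and right replicates 1 to 5 gave 134, 98.7, 139, 125 and 124 CPM. Its whole range was 1.65-fold, with replicate 2 lowest on both sides.

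Among accessory subunits, Ndufc1 led with 357 ± 129 CPM per kilobase, though its place depends on a principal transcript of 315 bases where the longest has 1249. For Ndufc1, left replicates 1 to 5 gave 134, 120.4, 82.3, 57.0 and 156 CPM and right replicates 1 to 5 gave 160.4, 107, 63.8, 78.4 and 164 CPM. Its highest values are those of replicates 1 and 5 and its lowest is left replicate 4. Ndufc2 followed at 234 ± 114, and left replicates 1 to 5 gave 234, 146, 98.3, 56.0 and 250.3 CPM and right replicates 1 to 5 gave 250, 133, 81.9, 100.4 and 247 CPM. The ranges of both sides are nearly the same, and the high values of each side are those of replicates 1 and 5. Ndufa10 was the steadiest of all 83 genes, with a 1.17-fold range over the 10 libraries (181 to 212 CPM). Ndufa11 and Ndufb2 were among the least steady of the complex, Ndufa11 at 134 to 151 CPM in replicates 1 and 5 of both sides and 28.0 to 76.2 CPM in the other 6 libraries. For Ndufs4, which helps to complete the NADH-oxidising arm, left replicates 1 to 5 gave 145, 139, 108, 115 and 130.3 CPM and right replicates 1 to 5 gave 128, 154, 95.1, 109 and 126 CPM. Right replicate 2 was highest and right replicate 3 lowest, so the right values enclosed the left ones. Ndufa10 and Ndufs4 were the only 2 complex I genes with a log2 fold change above 0.

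Complex II links the citric acid cycle to the chain and has no subunit encoded by mitochondria. Sdha (chr13:74322254-74350280, minus strand), its flavoprotein, led with 177 ± 18.8 CPM per kilobase. For Sdha, left replicates 1 to 5 gave 513, 432, 564, 494 and 499 CPM and right replicates 1 to 5 gave 485, 498, 520.1, 637 and 486 CPM. Right replicate 4 stood apart as the highest, and replicates 1 and 5 lay inside the range of the others. Sdha gave a log2 fold change of -0.10 (95% interval -0.37 to 0.18). The iron-sulfur subunit Sdhb stood at 73.1 ± 19.97 CPM per kilobase, and the membrane anchors Sdhd and Sdhc at 131 ± 56.4 and 55.9 ± 18.7. Unlike Sdha, these 3 were highest in replicates 1 and 5. For Sdhb, left replicates 1 to 5 gave 106, 80.4, 64.8, 55.4 and 107 CPM and right replicates 1 to 5 gave 111, 81.1, 58.5, 62.3 and 108 CPM. For Sdhd, left replicates 1 to 5 gave 259, 118, 112, 68.8 and 228 CPM and right replicates 1 to 5 gave 239.6, 142, 98.7, 119 and 227 CPM. For Sdhc, left replicates 1 to 5 gave 249, 172, 117, 97.7 and 257 CPM and right replicates 1 to 5 gave 221, 181, 102, 154 and 221 CPM. In each of these 3 genes the 4 libraries of replicates 1 and 5 lay above the other 6, and left replicate 4 was lowest. Reads of the 4 subunits therefore did not keep 1 ratio over the libraries.

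Complex III passes electrons from ubiquinol to cytochrome c. Its redox subunits of nuclear origin, cytochrome c1 (Cyc1) and the Rieske iron-sulfur protein (Uqcrfs1), stood at 88.0 ± 9.46 and 89.3 ± 27.2 CPM per kilobase, a difference below their spread. Cyc1 was steady over libraries, with a 1.48-fold range, whereas Uqcrfs1 stood at 159.5 to 169 CPM in replicates 1 and 5 of both sides and 82.6 to 105 CPM in the other 6 libraries. Highest per length were small subunits, with Uqcrh (chr4:116066965-116075071, minus strand), the hinge protein, at 635 ± 297 CPM per kilobase, Uqcr10 at 458 ± 216 and Uqcr11 at 191 ± 122. For Uqcrh, left replicates 1 to 5 gave 536, 302, 210.3, 167 and 513 CPM and right replicates 1 to 5 gave 544, 285, 182, 207 and 526 CPM. For Uqcr11, left replicates 1 to 5 gave 130.4, 67.5, 36.2, 20.4 and 147 CPM and right replicates 1 to 5 gave 152, 61.0, 33.8, 49.6 and 154 CPM. For Uqcr10, left replicates 1 to 5 gave 275, 188, 116, 76.4 and 308 CPM and right replicates 1 to 5 gave 310.4, 174, 108, 121 and 309 CPM. In all 3 genes replicates 1 and 5 of each side lay above all other libraries and left replicate 4 was lowest. The small subunit Uqcrb, with 43.2% of its 50-base windows at other loci, was lowest of the complex at 17.5 ± 5.25 CPM per kilobase. The place of Uqcrq depends on the transcript chosen, at 114 CPM per kilobase on 1521 bases and 428 on the principal transcript of 405 bases. Uqcrq ranged 9.43-fold, at 266 to 328 CPM in replicates 1 and 5 of both sides and 34.7 to 137 CPM in the other 6 libraries. The core proteins Uqcrc1 and Uqcrc2, which hold the complex together, stayed within a 1.42-fold and a 1.56-fold range. For Uqcrc1, left replicates 1 to 5 gave 108, 90.8, 99.0, 91.4 and 112 CPM and right replicates 1 to 5 gave 125, 87.9, 105, 96.1 and 120 CPM. The sides overlapped, and replicate 2 was lowest on both.

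Complex IV, cytochrome c oxidase, has a mitochondrially encoded catalytic core and a shell of small nuclear subunits. Cox6a1, Cox4i1 and Cox8a led with 776 ± 216, 634 ± 351 and 609.7 ± 182 CPM per kilobase, values that overlap within their spread, and Ndufa4 followed at 578 ± 229. For Cox4i1 (chr8:120668222-120674207, plus strand), the subunit that binds ATP in the control of the enzyme, left replicates 1 to 5 gave 744, 404, 239.8, 151 and 770.3 CPM and right replicates 1 to 5 gave 780.1, 364, 233, 269 and 765 CPM. The 4 libraries of replicates 1 and 5 held 744 to 780.1 CPM and the other 6 held 151 to 404 CPM, with left replicate 4 lowest, and the sides gave a log2 fold change of -0.07 (95% interval -1.21 to 1.06). For Cox6a1 (chr5:115345642-115348981, minus strand), left replicates 1 to 5 gave 472, 533, 338, 267 and 561 CPM and right replicates 1 to 5 gave 569, 464, 291, 344 and 593 CPM. Here left replicate 2 lay above left replicate 1, so the 2 sets of libraries overlapped. For Cox8a, left replicates 1 to 5 gave 393, 401, 264, 178 and 419 CPM and right replicates 1 to 5 gave 426, 358, 215, 246 and 454 CPM, again with left replicate 2 above left replicate 1. For Ndufa4, left replicates 1 to 5 gave 512, 345, 222, 175 and 497 CPM and right replicates 1 to 5 gave 496, 353, 185, 244 and 496 CPM. Here replicates 1 and 5 lay above all other libraries.

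Complex V makes ATP. Its F1 head carries the catalytic β subunit Atp5b and the α subunit Atp5a1, and Atp5b (chr10:128083273-128090391, plus strand) was the most abundant of the 83 genes, at 1673 ± 176 CPM per kilobase. For Atp5b, left replicates 1 to 5 gave 3755, 2686, 3069.9, 3235 and 3494 CPM and right replicates 1 to 5 gave 3459.9, 2706, 3323, 3055 and 3264 CPM. The sides overlap, the whole range is 1.40-fold, and replicate 2 is lowest on both sides. The sides gave a log2 fold change of 0.02 (95% interval -0.25 to 0.28). Atp5a1, which forms the head with Atp5b in equal numbers, stood at 399 ± 77.5 CPM per kilobase and at 1146 to 1249 CPM in replicates 1 and 5 of both sides and 726 to 961 CPM in the other 6 libraries. The rotor subunits Atp5c1, Atp5d and Atp5e stood at 264 ± 80.0, 468 ± 138 and 407 ± 264 CPM per kilobase. Atp5e, the ε subunit, ranged most of the head, 7.03-fold, at 279 to 309 CPM in replicates 1 and 5 of both sides and 43.9 to 133 CPM in the other 6 libraries. Atp5j, or F6 of the peripheral stalk, stood at 519 ± 179.9 CPM per kilobase, and left replicates 1 to 5 gave 533, 359, 268, 226 and 517 CPM and right replicates 1 to 5 gave 541, 364, 227, 284 and 532 CPM. The other stalk genes Atp5o, Atp5h and Atp5f1 stood at 283 ± 114, 114 ± 47.8 and 104 ± 39.9 CPM per kilobase.

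The c subunits, which form the proton-driven ring of complex V, are encoded by Atp5g1, Atp5g2 and Atp5g3 with different import peptides on the same mature protein. Counts came mostly from Atp5g3 (chr2:73908447-73911326, minus strand), at 546 ± 251 CPM per kilobase, and left replicates 1 to 5 gave 639, 320.3, 223, 192 and 573 CPM and right replicates 1 to 5 gave 586, 354, 204, 250.5 and 558 CPM. Replicates 1 and 5 again lie above the others on each side. Atp5g1 stood at 61.5 ± 24.6 CPM per kilobase and Atp5g2 at 0.623 ± 0.468. Atp5g1 stood at 43.8 to 54.0 CPM in replicates 1 and 5 of both sides and 14.6 to 41.2 CPM in the other 6 libraries. For Atp5g2, left replicates 1 to 5 gave 0.708, 0.444, 0.152, 0.0761 and 0.758 CPM and right replicates 1 to 5 gave 0.879, 0.153, 0.227, 0.188 and 0.971 CPM. Atp5g2 had the widest range of all 83 genes, 12.8-fold, on 5 to 66 reads in a library. Of the reads of Atp5g1 and Atp5g3 together, Atp5g1 had 6.42% to 11.4% over the libraries. These shares are uncertain, because much of both Atp5g1 and Atp5g2 is found at other loci.

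Several genes with low values have near-identical copies. Cut into windows of 50 bases, 87.4% of the Atp5g2 transcript, 68.5% of Atp5l and 66.0% of Atp5g1 recurred in transcripts of other annotated loci, and alignments that are not unique stand in a summary line of the counts and not with any gene. Over the 75 kept genes that are neither isoforms of restricted tissues nor named by symbol only, 11 had over 25% of windows elsewhere. All 7 of these 75 genes under 30 CPM per kilobase were among the 11: Atp5l, Atp5g2, Ndufb4, Uqcrb, Ndufs5, Ndufs3 and Cox7c. The median was 24.8 CPM per kilobase for the 11 and 149 for the other 64, whose lowest was 46.3 (Cox7a2l). Subunits g (Atp5l) and c (Atp5g2) at 0.510 and 0.623 CPM per kilobase are therefore uncertain as levels. For Atp5l, left replicates 1 to 5 gave 0.523, 0.380, 0.101, 0.152 and 0.541 CPM and right replicates 1 to 5 gave 0.328, 0.138, 0.136, 0.165 and 0.309 CPM. Left replicates 5, 1 and 2 are the highest, and right replicates 1 and 5 lie below left replicate 2, so the 2 sets of libraries overlap. The loci of 37 of the 83 genes also share bases with another annotated gene on either strand, and the sources used here do not say whether strand was used in counting.

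Isoforms of restricted tissues were scarce. Complex IV has paired genes in which 1 member is used broadly and the other mainly in muscle, lung or testis. Of the reads of each pair, Cox6a2, the heart and muscle form, had 0.180% to 1.49% beside Cox6a1 (median 0.485%). Cox7a1, also a muscle form, had 0.145% to 0.503% beside Cox7a2 (median 0.254%), and Cox4i2, the lung form, had 0.0141% to 0.175% beside Cox4i1 (median 0.0511%). Cox7b2 had 0.0419% to 0.200% beside Cox7b (median 0.0840%), and Ndufa4l2 0.0150% to 0.204% beside Ndufa4 (median 0.0621%). Cox6b2, the testis form, was the exception in size, at 3.04% to 4.08% beside Cox6b1 (median 3.53%). For Cox6b2, left replicates 1 to 5 gave 13.3, 9.55, 4.75, 3.37 and 12.9 CPM and right replicates 1 to 5 gave 14.3, 7.86, 3.64, 5.30 and 14.1 CPM, and for Cox6b1, left replicates 1 to 5 gave 360.5, 225, 131, 90.7 and 389 CPM and right replicates 1 to 5 gave 408, 197, 116, 141 and 423 CPM. Both genes were highest in replicates 1 and 5. The share was steadier than either level: the lowest value, in right replicate 3, had a 95% Wilson interval of 2.68% to 3.44%, and the highest, in left replicate 2, one of 3.77% to 4.41%. These intervals cover counting error only. Levels of the broad forms differed between libraries in the same way. For Cox7a2, left replicates 1 to 5 gave 421, 229, 139, 109.9 and 411 CPM and right replicates 1 to 5 gave 439, 223, 123, 162 and 433 CPM. For Cox7b, left replicates 1 to 5 gave 387, 303, 215, 182 and 366 CPM and right replicates 1 to 5 gave 384, 295, 182, 223 and 385 CPM. In both genes replicates 1 and 5 lay above all other libraries. For Cox7a1, left replicates 1 to 5 gave 0.843, 1.01, 0.507, 0.350 and 0.595 CPM and right replicates 1 to 5 gave 0.953, 0.552, 0.621, 0.424 and 1.03 CPM, with the 2 sets of libraries overlapping. For Cox7a2l, which links complexes III and IV in supercomplexes, left replicates 1 to 5 gave 72.6, 42.7, 33.1, 22.8 and 70.8 CPM and right replicates 1 to 5 gave 68.7, 45.7, 27.7, 47.4 and 66.8 CPM. Here replicates 1 and 5 were again above the rest. Cox8b was read in 4 of 10 libraries and Cox8c in none; where a count is 0, up to 3 reads are allowed, which for Cox8b in left replicate 1 is 0.0129% of the pair.

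Cox6a2 was the only 1 of the 83 genes below all other 6 libraries in replicates 1 and 5 of both sides. For Cox6a2 (chr7:128205435-128206387, minus strand), left replicates 1 to 5 gave 0.978, 3.15, 2.74, 3.11 and 1.01 CPM and right replicates 1 to 5 gave 1.25, 1.78, 3.80, 5.22 and 1.31 CPM. The share of Cox6a2 beside Cox6a1 was 0.180% to 0.220% in replicates 1 and 5 and 0.383% to 1.49% in the other 6 libraries. The 6 GABAergic, 6 thalamic and 15 astrocyte marker sums given above order the 2 sets of libraries the same way; their part in the level of Cox6a2 was not tested. Part of the Cox6a2 locus overlaps Itgad.

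**Figure D3:**
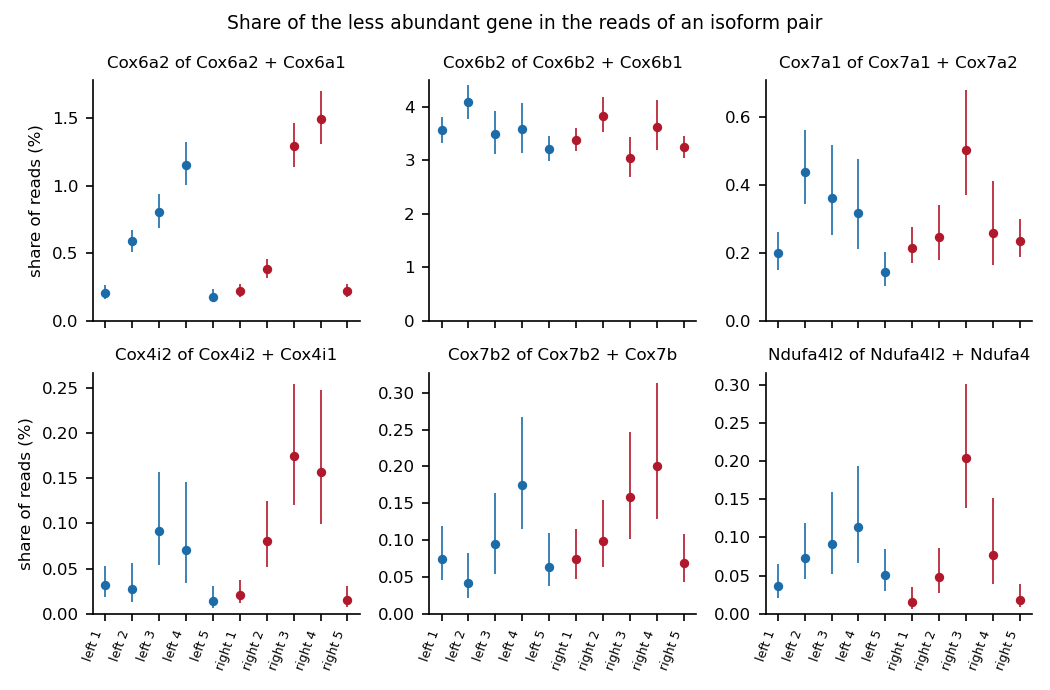
Share (%) of the less abundant gene in the reads of 6 isoform pairs, 1 point per library (left blue, right red), with bars for the 95% Wilson interval of counting error; each axis starts at 0 and the scales differ between panels. Cox6b2 lies at 3.04% to 4.08%, and Cox6a2 lies at 0.180% to 0.220% in replicates 1 and 5 of both sides and from 0.383% to 1.49% elsewhere.

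The study's own comparison is left against right. None of the 83 genes passed the test between the sides: 0 had an adjusted p under 0.05 in edgeR's quasi-likelihood test, where 0 of 16250 tested genes (0%) did, and 0 had an unadjusted p under 0.05, where 90 of 16250 (0.554%) did. DESeq2 called 0 of the 83, with 0 at an unadjusted p under 0.05, and limma-voom with sample weights called 0, with 4 at an unadjusted p under 0.05, where 14.5% of tested genes had one. With replicates 1 and 5 of each side summed, edgeR again called 0 of the 83. The smallest adjusted p over the 83 was 0.999992 with edgeR and the smallest unadjusted p was 0.102 (Cox4i2). In no gene did the CPM of the sides fail to overlap, against 0.215% of tested genes. The intervals show what this comparison could see. With all 10 libraries, the 95% interval of the log2 fold change lay within -1 and 1 for 55 of the 83 genes. The median half-width was 0.78. These widths count replicates 1 and 5 of a side as separate libraries and may be too narrow. With each pair summed, the interval of Sdhd reached beyond -1, at -1.08 to 0.82. That of Atp5b was then -0.33 to 0.35, beside -0.25 to 0.28 with all 10 libraries.

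Most log2 fold changes (left minus right) were slightly below 0. Of the 83, 74 were negative, where 53.7% of tested genes were, and the median was -0.07, beside -0.01 for all tested genes. With limma-voom and sample weights the median of the 83 was -0.52, beside -0.01 for all tested genes. In that fit 81 of the 83 were negative, where 51.2% of tested genes were. By complex the medians were -0.07 for complex I (33 of 35 negative), -0.06 for complex II (3 of 4) and -0.10 for complex III (8 of 9). They were -0.09 for complex IV (17 of 18) and -0.05 for complex V (13 of 17). Atp5s and Atp5sl, counted with complex V by symbol only, were both above 0. All these genes were measured in the same 10 libraries, so the counts are not independent observations. The median for the 83 ranged from -0.25 to 0.08 when each library was left out in turn. It was positive in 4 of these 10 fits: 0.05 without left replicate 3, 0.08 without left replicate 4, 0.08 without right replicate 1 and 0.08 without right replicate 5.

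The genes of the smallest unadjusted p in each direction had low counts in 4 of 6 cases. Cox4i2 had a log2 fold change of -0.86 (95% interval -1.93 to 0.20). In it, left replicates 1 to 5 gave 0.236, 0.111, 0.220, 0.107 and 0.108 CPM and right replicates 1 to 5 gave 0.164, 0.292, 0.409, 0.424 and 0.118 CPM, and the sides overlap. Cox7b2 had a log2 fold change of -0.45 (95% interval -1.23 to 0.34); left replicates 1 to 5 gave 0.287, 0.127, 0.203, 0.320 and 0.235 CPM and right replicates 1 to 5 gave 0.283, 0.292, 0.288, 0.447 and 0.265 CPM, and 3 of the 5 left values lie below every right value. Uqcrc1, core protein 1 of complex III, had a log2 fold change of -0.12 (95% interval -0.39 to 0.16). Higher on the left, Atp5l had a log2 fold change of 0.63 (95% interval -0.56 to 1.82), Ndufa4l2 a log2 fold change of 0.25 (95% interval -0.80 to 1.31) and Ndufs4 a log2 fold change of 0.04 (95% interval -0.25 to 0.33). For Ndufa4l2, left replicates 1 to 5 gave 0.185, 0.253, 0.203, 0.198 and 0.253 CPM and right replicates 1 to 5 gave 0.0745, 0.169, 0.379, 0.188 and 0.0883 CPM. The right values include both the lowest and the highest of the 10 libraries.

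**Figure D4:**
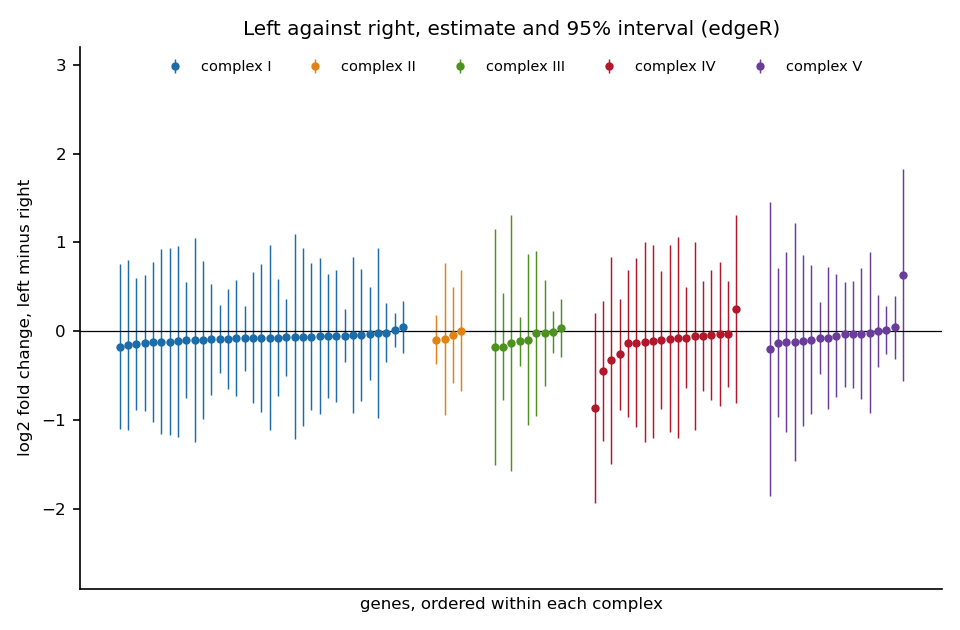
Log2 fold change, left minus right, of each kept gene with its 95% interval from edgeR, grouped by complex. All intervals include 0, and the points lie close to it apart from genes of low count such as Cox4i2, Cox7b2 and Atp5l.

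The comparison was also made inside each set of similar libraries. In replicates 2 to 4 alone, 0 of 82 tested members were called, where 0 of 16809 genes (0%) were, and the median was -0.10. In replicates 1 and 5 alone, 1 of 83 was called, where 1992 of 15569 genes (12.8%) were. That gene was Sdhc, a membrane anchor of complex II, with a log2 fold change of 0.20 and an adjusted p of 0.0451 (edgeR, 2 libraries a side). Sdhc stood at 249 and 257 CPM in left replicates 1 and 5 and at 221 and 221 CPM in right replicates 1 and 5. Since replicates 1 and 5 of a side may come from the same RNA, this p measures the spread between 2 libraries that may not be independent. In replicates 2 to 4 alone Sdhc had a log2 fold change of -0.20, the opposite sign.

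Most members were highest in replicates 1 and 5 of both sides. In 65 of the 83 genes all 4 libraries of replicates 1 and 5 lay above all other 6, where 22.9% of tested genes did, and in 1 gene they lay below, where 24.3% did. By complex this was 29 of 35 genes for complex I, 3 of 4 for complex II, 8 of 9 for complex III, 10 of 18 for complex IV and 15 of 17 for complex V. In 77 genes the single highest library was a replicate 1 or 5, where 39.6% of tested genes had their highest library there. The mean CPM of replicates 1 and 5 over that of the other 6 libraries had a median of 1.90 over the 83 genes and 0.99 over all tested genes. Since replicates 1 and 5 of a side may come from the same RNA, the 4 libraries may stand for only 2 preparations. With each pair summed to 1 library, an alternative chosen after seeing the data, both summed libraries lay above the other 6 in 68 of the 83 genes, where 26.3% of tested genes did, and below in 1, where 27.1% did. A summed library was then the highest in 75 of the 83 genes, where 35.3% of tested genes had it so, and the median ratio was 1.90 over the 83 genes and 0.99 over all tested genes. These are sets of libraries and not groups of the study, so no test was made. The libraries also differ in the marker sums given above; the part of other cell types in these ratios was not tested.

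The ratio was far from uniform. It was highest for Atp5g2 (4.01), Uqcrq (3.64), Atp5e (3.38) and Uqcr11 (3.26), which all encode small subunits. Close to 1 were Sdha (0.946), Cox7b2 (0.957), Ndufa10 (1.07), Ndufs4 (1.10), Ndufs1 (1.14), Cyc1 (1.14) and Atp5b (1.16). Lowest were the scarce isoforms Ndufa4l2 (0.648), Cox4i2 (0.601) and Cox6a2 (0.345). Subunits of 1 complex thus kept different ratios: within the F1 head the ratio was 1.16 for the β subunit Atp5b, 1.41 for α (Atp5a1), 1.58 for δ (Atp5d), 1.75 for γ (Atp5c1) and 3.38 for ε (Atp5e). In complex I the median was 1.58 for the 7 core genes and 2.11 for the 28 accessory genes.

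Short transcripts had the higher ratios, among these genes and among all genes. The median was 2.23 for the 25 members under 600 bases, 2.04 for 29 of 600 to 1000 bases, 1.82 for 12 of 1000 to 1500 bases, 1.48 for 11 of 1500 to 2000 bases and 1.23 for 6 of 2000 bases or more. Over all tested genes in the same length ranges it was 1.62, 1.54, 1.38, 1.17 and 0.921, so members stood above the median of all genes in each range. The ranges do not match lengths within them. In the last, members reached 3171 bases, and tested genes had no upper limit. With each pair summed, the medians were 2.23, 2.03, 1.82, 1.48 and 1.23 for members and 1.62, 1.54, 1.38, 1.17 and 0.922 for all tested genes. Across the 83 genes, length and ratio had a Pearson r of -0.35 and a Spearman rho of -0.43. Across the 74 genes that averaged 10 CPM or more these were -0.57 and -0.55, and across 14910 tested genes with a known length -0.29 and -0.41. The points share the same 10 libraries and genes are not independent replicates, so these correlations are descriptions. Members are short, with a median of 745 bases and 54 of 83 under 1000. Ribosomal protein genes, another large family of short transcripts, gave similar values: 57 of 77 lay above in all 4 libraries, with a median ratio of 1.89.

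**Figure D5:**
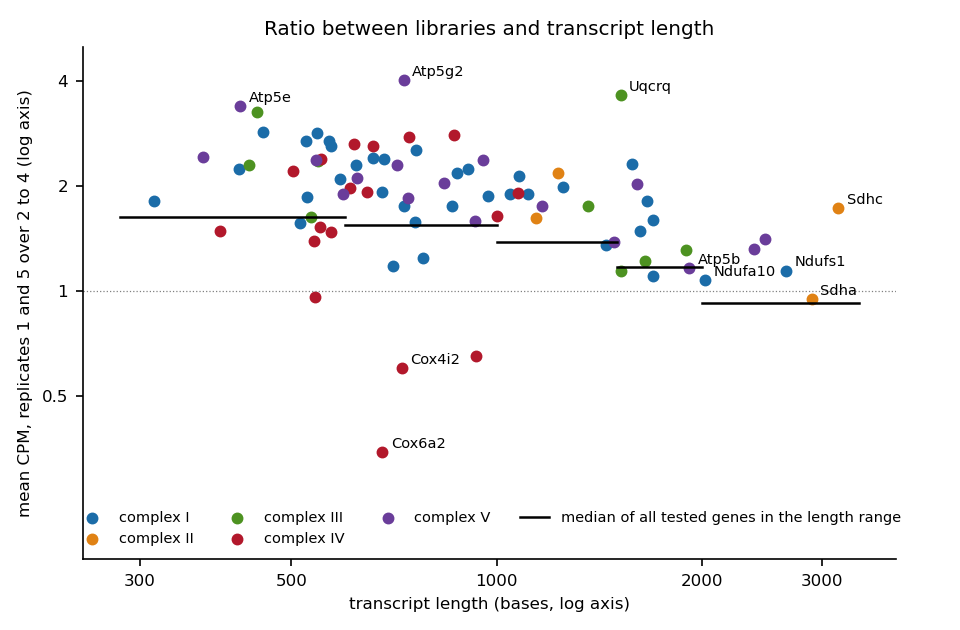
Ratio of mean CPM in replicates 1 and 5 to that in replicates 2 to 4 (log axis) against transcript length in bases (log axis), 1 point per gene, coloured by complex. Black bars give the median of all tested genes in each length range, from 1.62 under 600 bases to 0.921 at 2000 bases or more.

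Among genes that build, feed or regulate the complexes, 0 passed the adjusted threshold of edgeR's test in each of 10 lists, and 0 had an unadjusted p under 0.05. Assembly factors of complex I had 5 of 14 fold changes above 0 and 9 below, with a median of -0.01. The most abundant, Ndufaf3, stood at 90.2 ± 23.1 (left) and 89.8 ± 30.1 CPM (right). Factors of complex II had 2 above and 2 below of 4 (median -0.01), led by Sdhaf2 at 38.9 ± 8.74 (left) and 38.3 ± 8.57 CPM (right). Those of complex III had 2 above and 4 below of 6 (median -0.01), led by Ttc19 at 106 ± 25.2 (left) and 105 ± 25.3 CPM (right). For complex IV, 8 of 19 lay above and 11 below (median -0.03), led by Coa5 at 125 ± 48.8 (left) and 123 ± 33.3 CPM (right). For complex V all 4 lay below (median -0.07), led by the inhibitor Atpif1 at 154 ± 35.6 (left) and 157 ± 45.3 CPM (right).

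Upstream of the chain, citric acid cycle genes had 4 of 13 above 0 and 9 below (median -0.02), led by malate dehydrogenase Mdh2 at 585 ± 117 (left) and 606 ± 127 CPM (right). All 4 genes of pyruvate dehydrogenase lay below 0 (median -0.06), led by Dlat at 183 ± 9.34 (left) and 184 ± 21.3 CPM (right). Carriers and adenylate transport had 3 of 9 above and 6 below (median -0.04), led by the ADP/ATP carrier Slc25a4 at 934 ± 112 (left) and 898 ± 104 CPM (right). Glycolysis had 1 of 16 above and 15 below (median -0.09), led by aldolase Aldoa at 885 ± 105 (left) and 909.9 ± 130.3 CPM (right). Ribosomal proteins had 10 of 77 above and 67 below (median -0.10), with 0 called, led by Rpl4 at 427 ± 55.8 (left) and 414 ± 64.9 CPM (right). The transcriptional regulators had 4 of 11 above and 7 below (median -0.01), led by Ppargc1a, which encodes PGC-1α, at 122 ± 60.6 (left) and 108 ± 44.0 CPM (right).

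Between libraries these lists did not all follow the subunits. Replicates 1 and 5 lay above all other libraries in 11 of 14 assembly factors of complex I, 4 of 4 of complex II, 4 of 6 of complex III, 10 of 19 of complex IV and 3 of 4 of complex V. The same held for 4 of 13 citric acid cycle genes, 2 of 4 of pyruvate dehydrogenase, 4 of 11 regulators, 4 of 9 carriers and 6 of 16 glycolytic genes, with a background of 22.9% of tested genes. With each pair summed, the counts were 12 of 14, 4 of 4, 4 of 6, 11 of 19 and 3 of 4 for the assembly factors of complexes I to V, 4 of 13 for the citric acid cycle, 2 of 4 for pyruvate dehydrogenase, 5 of 11 for regulators, 4 of 9 for carriers and 6 of 16 for glycolysis, with a background of 26.3%. Summed CPM of the citric acid cycle ranged from 2505 to 2940.4 CPM. Replicates 1 and 5 lay below all other libraries in 2 of 11 regulators, 2 of 13 citric acid cycle genes, 4 of 16 glycolytic genes and 1 of 9 carriers. The same held for 1 of 6 assembly factors of complex III and no gene of the other lists named here, with a background of 24.3%. The 2 regulators were Ppargc1a, at 62.7 to 66.2 against 105 to 207 CPM, and Ppargc1b, at 26.3 to 31.2 against 33.7 to 41.0 CPM. Most markers of glia and of thalamic and GABAergic neurons are ordered as these 2 genes. Their part in the levels of Ppargc1a and Ppargc1b was not tested.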

How the data were processed

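The authors deposited raw counts, 1 value per gene row, for 10 libraries. Per the submitters' processing notes, the authors used STAR 2.0.0e, HTSeq and mm10; the sources used here do not give annotation, strand setting, read length or filters. In each file 6 of 32537 rows name no gene and were left out. Among uniquely aligned reads, 13.6% to 18.9% fell in no gene and 2.25% to 2.81% were ambiguous. Gene reads of 42488448 to 67942836 per library make counting noise small for all but the rarest genes.

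Sides came from sample titles. The test was edgeR 4.0.16 (R 4.3.3; TMM, filterByExpr with a minimum count of 10, robust quasi-likelihood F test, two-sided, side as the only term), with Benjamini-Hochberg adjustment over all 16250 tested genes and a threshold of 0.05. Alternatives were other normalisations and filters, DESeq2 1.42.0, limma-voom (limma 3.58.1), replicate or lane blocks, a glial covariate (mean log2 CPM of glial and endothelial markers, prior count 2), subsets of libraries and each library left out. The fit was checked on simulated counts with set changes between the sides. It called 41 of 100 genes changed 2-fold, 84 of 100 changed 4-fold and 4 of 16050 left unchanged. A 2-fold difference could thus often be missed. Levels are CPM over gene rows, divided by the length of the shortest APPRIS principal transcript with a RefSeq match in GENCODE M21. Copies were sought as windows of 50 bases. Figures used matplotlib 3.10.9 in Python 3.11.15.

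Genes, gene lists and naming rule were chosen with earlier results of these data known. Named in full were the 3 most abundant genes of each complex per kilobase (all 4 of complex II), the isoform groups, the 3 of smallest unadjusted p in each direction and the genes next to the read threshold; any other kept gene could be named. From each other list, the most abundant gene was named. Chat, whose gene drives the transgene, was named besides.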

Additional observations from a re-analysis of the deposited data

Results flagged for a closer look

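Of 74 groups of 5 libraries examined, 2 held a library whose gap to its nearest neighbour exceeded 0.71 of the group's whole range (Dixon's 95% critical value); chance gives about 1 in 20. Both were right replicate 4, the library with the fewest gene reads (42488448). Sdha, the flavoprotein of complex II, stood there at 637 CPM, against 485 to 520 CPM in the other 4 right libraries. Cox7b2, a rare isoform of complex IV, stood there at 0.447 CPM, against 0.265 to 0.292 CPM in the others. Its reads were 19, 19, 19, 19 and 18 in right replicates 1 to 5. The reads of Cox7b2 were thus alike in the 5 right libraries, while the total of gene reads was lowest in right replicate 4. With so few reads, counting noise limits this value, and the reason for the higher CPM was not tested.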

How the results depend on the processing

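The count of members called was 0 in every alternative except replicates 1 and 5 alone, which called 1 member (Sdhc) and 1992 genes. The difference in summed CPM between the sides (left minus right) moved by less than the SD between libraries in every alternative run on it, but its sign did not hold: with each library left out in turn it ran from -1547 to 887 CPM for all members, -466 to 215 for complex I, -83.4 to 19.5 for complex II, -185 to 117 for complex III, -447 to 255 for complex IV and -476 to 369.8 for complex V. Other values are log2 fold changes, left minus right, whose sign changed; none passed the threshold apart from Sdhc in replicates 1 and 5, and the cause was not tested. With limma-voom they were -0.092 for Atp5b, -0.063 for Atp5l, 0.62 for Cox6a2, -0.010 for Ndufs4 and -0.37 for Sdhc. With the glial score as covariate they were 0.000527 for Cox6b2 and -0.037 for Sdhc. In replicates 2 to 4 alone they were -0.037 for Atp5b, 0.22 for Atp5g2, 0.030 for Cox6a1, 0.053 for Cox6b2, 0.21 for Cox7a1, 0.023 for Cox8a, -0.19 for Ndufa4l2, 0.038 for Ndufc1, -0.0059 for Ndufs4, 0.0085 for Ndufs7 and -0.20 for Sdhc. In replicates 1 and 5 alone they were 0.062 for the median of complex II, 0.084 for Atp5g3, 0.30 for Cox4i2, 0.083 for Cox7a2l, 0.025 for Ndufa4, 0.062 for Sdha and 0.062 for Sdhd, and with these replicates summed -0.049 for Sdhc.

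With the replicate number as a block, edgeR called 0 of 16250 genes (297 at an unadjusted p under 0.05) and 0 members, the median of all members was -0.10, and Sdhc turned to -0.046. With the lane as a block in replicates 2 to 5, Sdhc stood at -0.088. Same-numbered libraries of replicates 2 to 5 shared a lane. Same-numbered libraries correlated at 0.096 to 0.87 in their deviations from the side means. Libraries of unlike number reached 0.863 (left replicate 5, right replicate 1), 0.859 (left replicate 4, right replicate 3) and 0.848 (left replicate 1, right replicate 5). Others ran down to -0.87. These values do not decide whether the numbers pair the samples, and the main test did not use the numbers.

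With each library left out in turn, values ran from -0.25 to 0.081 for the median of all members, -0.25 to 0.076 for the median of complex I, -0.16 to 0.091 for the median of complex II, -0.22 to 0.10 for the median of complex III, -0.27 to 0.097 for the median of complex IV and -0.20 to 0.096 for the median of complex V. Genes whose sign changed in at least 1 of these fits ran from -0.047 to 0.079 for Atp5b, -0.17 to 0.16 for Sdhc, -0.25 to 0.17 for Atp5g3, -0.33 to 0.10 for Sdhd, -0.22 to 0.18 for Uqcrh, -0.30 to 0.11 for Atp5g1, -0.52 to 0.23 for Atp5g2, -0.20 to 0.094 for Atp5j, -0.35 to 0.16 for Cox4i1, -0.19 to 0.062 for Cox6a1, -0.37 to 0.15 for Cox6b1, -0.25 to 0.17 for Cox6b2 and -0.32 to 0.14 for Cox7a2. The rest of them ran from -0.29 to 0.081 for Cox7a2l, -0.15 to 0.10 for Cox7b, -0.17 to 0.11 for Cox8a, -0.20 to 0.14 for Ndufa4, -0.25 to 0.095 for Ndufc1, -0.31 to 0.15 for Ndufc2, -0.16 to 0.078 for Sdhb, -0.34 to 0.11 for Uqcr10, -0.53 to 0.11 for Uqcr11, -0.34 to 0.036 for Cox7a1, -0.23 to 0.042 for Ndufs7, -0.027 to 0.12 for Ndufs4, -0.51 to 0.10 for Cox6a2 and -0.13 to 0.0069 for Sdha. Depth limits the rare genes, such as Cox4i2 with 6 to 27 reads in a library.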
